A study of Caenorhabditis elegans with 2 samples.

Results

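Divergent promoters with an SMA-9 summit are stretches of sequence that lie upstream of a pair of neighbouring genes transcribed away from each other and that hold the summit of a reproducible SMA-9 peak. A summit was counted where it lay within 1000 bp upstream of annotated 5′ ends of protein-coding genes on both strands at once. Peaks came from the list filtered by irreproducible discovery rate (IDR), which keeps peaks whose rank holds up between replicates. Of its 7065 summits, 602 met the rule, which is 8.52%. A further 2695 lay upstream of genes of 1 strand only, and 3768 lay upstream of no protein-coding gene by the same distance.

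The data are chromatin immunoprecipitation followed by sequencing (ChIP-seq) from whole Caenorhabditis elegans hermaphrodites at the second larval stage (L2), in 2 biological replicates of 1 group. The worms were of strain LW1254, which carries the integrated transgene jjIs1254 (sma-9C2::gfp with an unc-119(+) rescue marker) in an unc-119(ed4) background. They were taken 22 hours after bleaching and arrest of the first larval stage by starvation, with no treatment named. An antibody against GFP was used on a protein tagged at its C-terminus with GFP and FLAG. No worm without the transgene is among the samples, and the control experiment named in the labels was not analysed here. Whole animals mix all tissues, so a high signal in a few cells and a low signal in many cannot be told apart. Only peak lists were used, so the depth of the libraries is unknown.

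SMA-9 is a large zinc-finger protein of the Schnurri family. In flies and worms, Schnurri proteins work with Smad proteins downstream of bone morphogenetic protein (BMP) signals. In C. elegans SMA-9 is needed for normal body size under the DBL-1 pathway, and it also has a role in mesoderm patterning. In a divergent promoter the genes on both strands start from one shared piece of intergenic DNA, so a factor bound there sits upstream of both, and binding data alone do not assign it to either. In worms a leader RNA is often spliced onto the message, and the annotated 5′ end of such a gene is the splice site rather than the point where transcription starts.

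The sequence around a summit is what both genes of a pair share, and the strongest examples are printed below as windows of 50 bp on each side of the summit, which is base 51. They are the 8 strongest apart from clsp-1/eef-2. Each is the forward strand of WBcel235 (ce11) from RefSeq, named by the reverse-strand gene and then the forward-strand gene. Capitals mark any match, on either strand, to the 11 motifs described further on and to 3 words: GCGAGACC, the word GCGCTCCA and the word CATACACT.
H12C20.7/nhr-68, chrV:11572984-11573084: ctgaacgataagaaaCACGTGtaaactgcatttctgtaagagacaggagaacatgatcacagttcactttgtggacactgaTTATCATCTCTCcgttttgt
mif-4/ipla-6, chrIV:6336820-6336920: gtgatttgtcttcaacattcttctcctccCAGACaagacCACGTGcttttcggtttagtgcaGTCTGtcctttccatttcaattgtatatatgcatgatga
rpl-15/K11H12.8, chrIV:654881-654981: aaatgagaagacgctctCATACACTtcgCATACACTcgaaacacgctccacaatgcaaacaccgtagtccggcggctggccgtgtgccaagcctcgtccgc
rpl-20/Y17G9B.5, chrIV:4750025-4750125: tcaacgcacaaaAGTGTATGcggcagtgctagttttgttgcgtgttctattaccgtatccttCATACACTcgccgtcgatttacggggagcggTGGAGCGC
nhl-2/tag-340, chrIII:4899881-4899981: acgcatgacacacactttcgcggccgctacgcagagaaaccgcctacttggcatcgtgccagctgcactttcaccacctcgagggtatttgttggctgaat
ifet-1/rps-1, chrIII:4475604-4475704: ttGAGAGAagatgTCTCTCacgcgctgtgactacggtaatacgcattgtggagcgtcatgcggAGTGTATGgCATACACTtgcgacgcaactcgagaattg
K01G5.10/tasp-1, chrIII:10759202-10759302: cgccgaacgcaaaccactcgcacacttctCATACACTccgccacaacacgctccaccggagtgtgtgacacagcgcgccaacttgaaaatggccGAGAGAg
ska-3/rps-12, chrIII:5679077-5679177: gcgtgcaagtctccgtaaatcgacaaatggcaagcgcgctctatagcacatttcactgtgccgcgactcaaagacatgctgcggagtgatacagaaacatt
A CACGTG E-box stood in the windows of H12C20.7/nhr-68 and mif-4/ipla-6. The word CATACACT, or AGTGTATG on the other strand, stood in those of rpl-15/K11H12.8, rpl-20/Y17G9B.5, ifet-1/rps-1 and K01G5.10/tasp-1. The windows of nhl-2/tag-340 and ska-3/rps-12 hold no capital.

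Further windows are given because results below turn on them: the strongest summit with the word GCGAGACC (gmps-1/cap-2), the strongest at the DBL-1 pathway genes sma-10 and sma-2, and that of a heat shock gene pair. They were chosen after their values were seen.
gmps-1/cap-2, chrII:10868917-10869017: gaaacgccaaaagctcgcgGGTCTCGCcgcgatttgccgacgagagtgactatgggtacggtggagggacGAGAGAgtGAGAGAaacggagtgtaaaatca
srh-282/sma-10, chrIV:274281-274381: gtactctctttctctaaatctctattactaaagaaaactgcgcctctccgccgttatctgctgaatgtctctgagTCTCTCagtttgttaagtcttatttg
ugtp-1/sma-2, chrIII:8749570-8749670: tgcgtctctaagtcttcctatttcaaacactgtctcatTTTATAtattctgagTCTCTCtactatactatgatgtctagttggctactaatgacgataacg
hsp-16.2/hsp-16.41, chrV:1805056-1805156: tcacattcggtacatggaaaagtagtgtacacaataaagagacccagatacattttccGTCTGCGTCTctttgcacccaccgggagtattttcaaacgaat

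The strongest summit of all 602 lay at chrV:11572822-11573207 between H12C20.7 and nhr-68, a nuclear hormone receptor gene. Its IDR-list signal, the peak caller's own value as deposited and used here only to rank and describe peaks, was 1687. Its signal was 987.3 in replicate 1 and 700.7 in replicate 2, where it ranked 4 and 16. The summit was 44 bp upstream of H12C20.7 and 406 bp upstream of nhr-68. The second was at chrIV:6336708-6337057, between mif-4, a relative of macrophage migration inhibitory factor, and ipla-6, of the phospholipase A2 family, with a signal of 1436 (900.6 in replicate 1 and 547.5 in replicate 2). It was far from both ends, 876 bp from mif-4 and 783 bp from ipla-6.

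Genes of protein synthesis held many of the other high places. The summit at chrIV:654828-655036, between the ribosomal protein gene rpl-15 and K11H12.8, had a signal of 1315 (726.4 in replicate 1 and 601.3 in replicate 2). That at chrIV:4749958-4750189, between rpl-20 and Y17G9B.5, had a signal of 1163 (694.3 and 472.2 in replicates 1 and 2). The 2 others of ribosomal protein genes among the first 15 were ifet-1/rps-1 at 905.5 and ska-3/rps-12 at 841.2. IFET-1 is a translational repressor that binds the cap-binding factor, and SKA-3 is a kinetochore protein, so a ribosomal protein gene shared its upstream sequence with a gene of another role in each. Elongation factors stood beside genes of DNA replication: clsp-1/eef-2, with the claspin gene, had a signal of 923, and ctf-4/eef-1G had 755.7. The gene for eIF-5A, iff-2, had 772.7 with F54C9.14 on the other strand.

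The rest of the first 15 covered varied roles. The summit of nhl-2/tag-340, of which nhl-2 encodes a cofactor of microRNA silencing, had a signal of 1029 and lay over an annotated non-coding RNA gene. Taspase gene tasp-1 with K01G5.10 had 901.2, the cux-7/C07H6.2 promoter, which also lies upstream of the DNA ligase gene lig-4, had 814.6, and C47E8.4/hsp-90 had 731.8. In the hsp-90 pair the summit was in an intron and was not upstream of the outermost end of both genes. The promoter of mig-5, a Dishevelled gene of Wnt signalling, and cct-1, a subunit of the cytosolic chaperonin, had 728.6. Dehydrogenase gene dhs-25 with D1005.10 and D1005.4 had 697.5, and it was the only X-linked summit among the 15. Each of the 15 was called in both replicates, with signals of 362.9 to 987.3 in replicate 1 and of 301.4 to 700.7 in replicate 2.

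**Figure D1:**
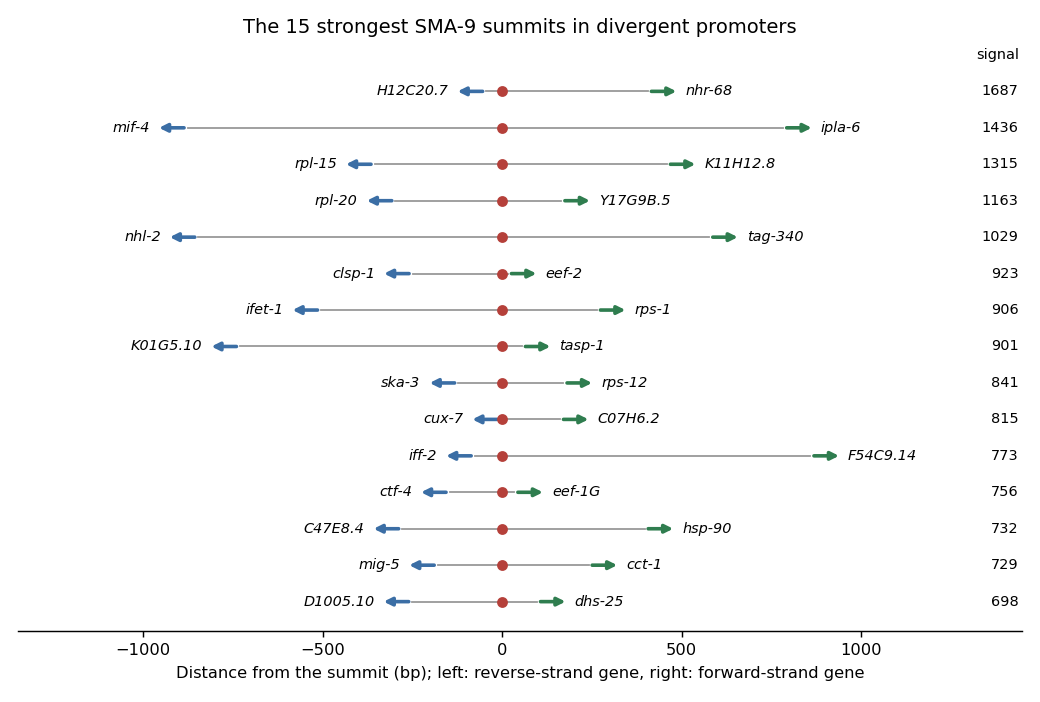
Position of both 5′ ends (arrows, pointing in the direction of transcription) relative to the summit (dot at 0, x axis in bp) for the 15 strongest summits, strongest at the top, with the signal at the right. The distance to the nearer end runs from 3 bp (cux-7) to 783 bp (ipla-6).

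Across all members the median signal was 136.7 (95% order-statistic interval 126.8 to 146.8, quartiles 87.26 and 229.8, range 62.07 to 1687). It was 114.1 (111.5 to 117.2) at the 2695 summits upstream of 1 strand only and 109.1 over all 7065. The same order held in each replicate's own list. In replicate 1 the median signal was 76.51 at divergent promoters and 63.21 at singly upstream summits, with median ranks of 2646 and 3434. In replicate 2 these were 62.18 and 53.7, with ranks of 2740 and 3385. The distributions overlapped over most of their range, since the strongest singly upstream summit reached 2844. Of the members, 97 (Wilson 95% interval of the share 13.4% to 19.3%) were in the tenth of the list with the highest signal, which holds 9.99% of all summits, against 271 (10.1%) of the singly upstream ones. These and all later intervals cover counting error only, because peaks of 1 experiment are not replicates.

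Of the 602 summits, 586 (97.3%, 95.7 to 98.4) lay inside a call of both replicates, against 95.2% of all summits. Another 11 lay inside a call of replicate 1 only, 4 of replicate 2 only and 1 of neither. The 3 strongest without a call in 1 replicate all lacked replicate 2: W02H5.16/W02H5.19 with a signal of 457.4, epc-1/Y111B2A.12 with 332.1 and fbxa-108/dgat-2 with 220.6. EPC-1 is an enhancer of Polycomb homolog, and dgat-2 encodes a late enzyme of fat synthesis. Across the 586 summits called in both, log2 signals of the replicates had a Pearson correlation of 0.846 and a Spearman correlation of 0.827, given as a description across regions. Both replicates had the summit inside 1 of their own first 7065 calls for 477 members (79.2%), against 71.7% of all summits. The weakest members, pah-1/nsph-1.1, M04B2.4/gfl-1 and C01G10.15/C01G10.6, had signals of 62.07, 62.09 and 62.13, at the lower limit of the list. That of pah-1/nsph-1.1 lay in an intron and was not upstream of the outermost end of both genes.

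**Figure D2:**
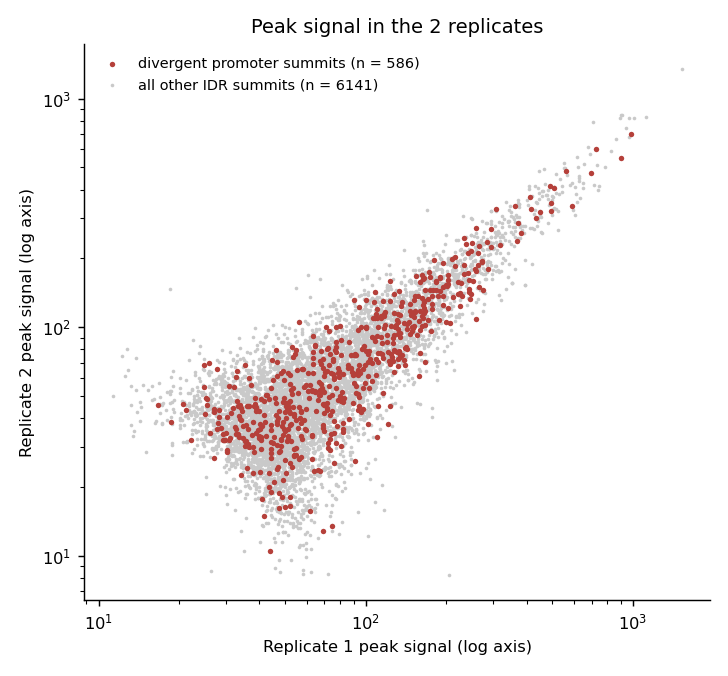
Signal of the replicate 1 call (x axis) and the replicate 2 call (y axis) that hold the same IDR summit, on log axes, for 586 divergent promoter summits (dark) and the other IDR summits called in both replicates (light). The divergent promoter summits run along the whole cloud and spread more at low signal.

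The sequence open to such summits is small. Stretches within 1000 bp upstream of ends on both strands made up 1718692 bp, 1.71% of the nuclear genome, in 3030 separate runs. They held 350 summits per megabase (exact Poisson 95% interval 323 to 379), against 130 (125 to 135) in sequence upstream of 1 strand only and 48.4 in the remainder, a ratio of 2.69 between the first 2. A summit stood in 587 of the 3030 runs (19.4%), of which 572 held 1 and 15 held 2.

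Distance from the nearest end differs between these kinds of sequence, so densities were also compared at equal distance. Within 1 to 100 bp of the nearest end there were 500 summits per megabase (434 to 573) where both strands had a gene and 208 (190 to 228) where 1 strand did. Beyond 100 and up to 200 bp there were 582 (503 to 669) and 291 (268 to 315), and up to 300 bp 409 (336 to 492) and 193 (175 to 213). From 301 to 400 bp the values were 178 (126 to 246) and 127 (upper bound 144), and from there on outwards the intervals overlapped. The density at doubly upstream sequence was thus 2 to 2.4 times that at singly upstream sequence within 300 bp of an end. Doubly upstream sequence lies near 2 ends by definition, and the part of this in the ratio was not tested. The bin of 901 to 1000 bp held 0 members, where 12756 bp of sequence qualified.

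**Figure D3:**
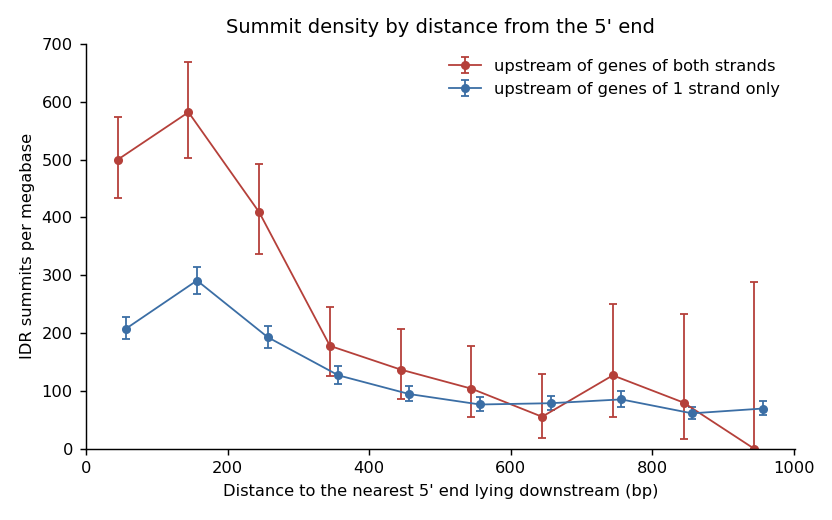
IDR summits per megabase (y axis) by distance to the nearest downstream 5′ end in 100 bp bins (x axis), in sequence upstream of both strands and of 1 strand only; bars are exact Poisson 95% intervals. Both curves are highest between 100 and 200 bp, at 582 and 291 per megabase, and their intervals overlap beyond 300 bp.

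The nearer 5′ end was a median of 144 bp away (quartiles 71.25 and 236.8) and the farther a median of 390 bp. Summits upstream of 1 strand only had a median distance of 262 bp, but a minimum over 2 ends is smaller by construction. The nearer gene was on the reverse strand for 296 summits and on the forward strand for 306. Within 100 bp of the nearer end lay 206 members (34.2%) and within 300 bp 514 (85.4%), while 239 lay within 300 bp of both. In the central one of 3 equal parts of the spacing between the ends stood 254 summits (42.2%).

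The spacing between the 2 nearest ends was a median of 568 bp (quartiles 332.2 and 878.2). It ran from 12 bp at F32D8.14/F32D8.5, where the signal was 340.2, to 1811 bp at ceeh-1/zip-2, where it was 128.4. The ceeh-1/zip-2 summit lay in an intron and relied on an internal annotated end, so the outermost ends of this pair are closer together. ZIP-2 is a bZIP factor of pathogen responses and CEEH-1 an epoxide hydrolase. Among all annotated pairs of neighbouring divergent ends, a summit stood between 186 of 570 pairs (32.6%, Wilson interval 28.9 to 36.6) spaced by 251 to 500 bp. The share was 69 of 406 (17%, 13.7 to 21) at 1 to 250 bp, 210 of 879 (23.9%, 21.2 to 26.8) at 501 to 1000 bp and 79 of 856 (9.23%, 7.47 to 11.4) at 1001 to 2000 bp. In that widest class only the part within 1000 bp of both ends was counted. Summits between the ends but farther from 1 of them were left out, so its share is lowered by the rule. Per megabase of shared sequence the order was another one, with 1059 summits (824 to 1341) at the shortest spacing. The next classes had 891 (767 to 1028), 338 (295 to 387) and 174 (138 to 215). The intervals of the 2 shortest classes overlapped, so their order is not settled. Median signal differed little between these classes, at 136, 155, 130 and 128 from the shortest to the widest.

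Most members lay between protein-coding genes (525), with 37 in an intron, 37 in an exon's untranslated part and 3 in a coding exon of another transcript. Taking the outermost end of each gene alone, 534 (88.7%) were still upstream of genes on both strands, and the other 68 relied on an internal annotated end. A non-coding gene covered 48 summits, 42 of them of the class ncRNA and 3 tRNA genes. Upstream genes numbered 2 at 573 summits, 3 at 28 and 4 at 1. At the limit of the rule, 46 members with the farther end 901 to 1000 bp away had a median signal of 108.7 (62.07 to 517.8), and 43 summits just outside it, at 1001 to 1100 bp, had 103.7 (63.43 to 1161).

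Chromosome X was poor in members. It held 35, or 2.06% of its own 1699 IDR summits, against 10.6% on the autosomes. The X had 10.9 doubly upstream stretches per megabase and the autosomes 34.4. Within such sequence the X had 353 summits per megabase (246 to 491), against 350 (322 to 380) on the autosomes, so the densities differed by far less than their counting error. Sequence upstream of 1 strand only went otherwise, with 200 (185 to 216) on the X and 118 (113 to 123) on the autosomes. The doubly to singly upstream ratio was 1.77 on the X and 2.97 on the autosomes. Chromosome III had 460 per megabase (381 to 550), the highest of the 6, and chromosome IV 308 (249 to 376), the lowest.

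**Figure D4:**
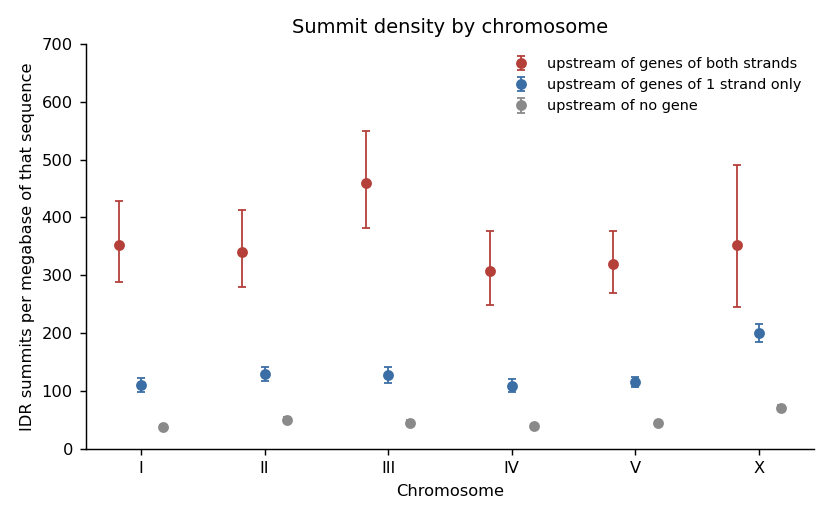
IDR summits per megabase (y axis) on each chromosome (x axis) in sequence upstream of both strands, of 1 strand only and of no gene; bars are exact Poisson 95% intervals. On the X the doubly upstream value of 353 is close to the autosomes' 350, while the singly upstream value of 200 is above their 118.

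The 602 summits were upstream of 1201 distinct genes. Of 19973 protein-coding genes, 5818 (29.1%) had a divergent arrangement as defined here, and 1201 of these (20.6%, Wilson interval 19.6 to 21.7) had a summit in the shared stretch. Any IDR summit within 1000 bp upstream was present for 1498 divergent genes (25.7%, 24.6 to 26.9) and for 2107 of the 14155 genes with no such arrangement (14.9%, 14.3 to 15.5), with 18% over all genes. Of 3177 pairs of genes with a shared stretch, 617 (19.4%) held a summit. Lists of genes by function are given against the 20.6% of all divergent genes, as counts without a test.

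Cytosolic ribosomal protein genes, which encode the parts of the ribosome, were highest, with a summit at 36 of 53 divergent members (67.9%, 54.5 to 78.9) and a median signal of 249. In 30 of their 33 summits the other strand held a gene of another kind. In those 30 the summit was nearer to the ribosomal protein gene in 11, at a median of 303.5 bp from it and 192.5 bp from the partner. The exceptions with a ribosomal protein gene on both strands were rps-14/rpl-36, rps-10/rpl-24.1 and rpl-39/rps-30, with signals of 272.3, 249.1 and 200. Divergent ribosomal protein genes with no summit in the shared stretch included rpl-1, rpl-2, rps-2, rps-6 and rla-1. Leaving out every summit with such a gene, 569 members had a median signal of 133, and 2672 singly upstream summits had 114. High values at these genes were not confined to divergent promoters. The 23 singly upstream summits with a ribosomal protein gene had a median signal of 213. Any IDR summit within 1000 bp upstream was present for 58 of all 81 ribosomal protein genes (71.6%), against 18% of all protein-coding genes.

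Other genes of protein synthesis and RNA processing also stood above the share of all divergent genes. Translation factors had 11 of 21 (52.4%) and splicing factors 13 of 25 (52%), with prp-19/K10D2.5 at 472.3 the strongest splicing factor summit. The SR protein genes rsp-2 and rsp-1 shared a summit of 411.5 at chrII:11453218, and snr-3/rsp-5 one of 191.3. The first was 263 bp from rsp-2 and 756 bp from the nearest protein-coding 5′ end of rsp-1. The annotated rsp-1 gene itself begins closer to the summit, at chrII:11453362. RNA polymerase II and Mediator genes had 6 of 13 (46.2%), led by mdt-6 at 268.9, and mitochondrial ribosomal protein genes 12 of 30 (40%), led by mrps-7 at 273.3. The mdt-6 summit was 937 bp from that gene, with Y57E12AL.6 in between and 91 bp away. It lay in an untranslated exon part and relied on an internal annotated end. Aminoacyl-tRNA synthetase genes had 4 of 15 (26.7%), with ears-2/uncp-18 at 353.1.

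Protein folding, turnover and energy genes followed. Heat shock and cytosolic chaperone genes had 18 of 34 (52.9%) with a median signal of 268, and the pair hsp-110/rpn-3 joined a chaperone with a proteasome lid subunit at 462.4. The small heat shock genes hsp-16.2 and hsp-16.41 shared a summit of 170.8, with signals of 109.5 in replicate 1 and 61.79 in replicate 2. Near-identical hsp-16 copies exist, and how reads that match several places were placed is not given in the sources used here, so this value is uncertain. Proteasome genes had 10 of 24 (41.7%), ER chaperone and secretion genes 5 of 12 (41.7%), led by the BiP gene hsp-3 at 218.9, and ubiquitin pathway genes 5 of 15 (33.3%), led by ubq-2/frg-1 at 211.8. Rab GTPases of vesicle traffic had 6 of 13 (46.2%), led by rab-18 at 299.8, a summit in an untranslated exon part that relied on an internal annotated end. The vacuolar proton pump had 2 of 8 (25%), led by vha-8 at 296.9, and autophagy genes 0 of 4 (Wilson upper limit 49%, or 75% by the plainer limit of 3 counts of the total). Respiratory chain genes had 13 of 34 (38.2%), led by atp-1, a subunit of ATP synthase, with mcrs-1 at 409.3, and fatty acid enzymes 4 of 11 (36.4%), led by acdh-9 at 152.2. The Wilson intervals of the synthetase, ER, ubiquitin, vacuolar and fatty acid lists reached below 20.6%, and those of the others with a summit in these 3 groups of lists did not.

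Core histone genes, whose clusters are built of divergent pairs, had 14 of 66 (21.2%, 13.1 to 32.5), close to all divergent genes. All 7 of their summits had histone genes on both strands, and the strongest were his-67/his-68 at 365.8 and his-61/his-62 at 276.3. Histone copies are near identical, so these are also uncertain. Nuclear hormone receptors had 11 of 46 (23.9%), with a median signal of 90.8 and nhr-68 as the highest. Among ceh homeobox genes 2 of 10 (20%) had a summit, led by ceh-38 at 370.8. The ceh-38 summit lay in an untranslated exon part and relied on an internal annotated end. The ztf zinc-finger genes had 0 of 7 (Wilson upper limit 35.4%, or 42.9% by 3 counts of the total).

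The 2 lists with the most divergent genes were low, and smaller lists of surface and signalling genes varied. Chemoreceptor genes had 15 of 288 (5.21%, 3.18 to 8.41) and C-type lectins 5 of 83 (6.02%, 2.6 to 13.3), with intervals below 20.6%. The strongest summit of the C-type lectins was clec-241/clc-13 at 200.2. The col cuticle collagens had 6 of 44 (13.6%, 6.4 to 26.7), led by col-38/rpl-5 at 196.1, a summit counted for a ribosomal protein gene too. Ion channels had 2 of 20 (10%, 2.79 to 30.1), led by glc-1 at 89.96, while neuropeptide genes had 6 of 18 (33.3%, 16.3 to 56.3), led by the pair nlp-34/nlp-31 of antimicrobial-type peptides at 151.2.

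**Figure D5:**
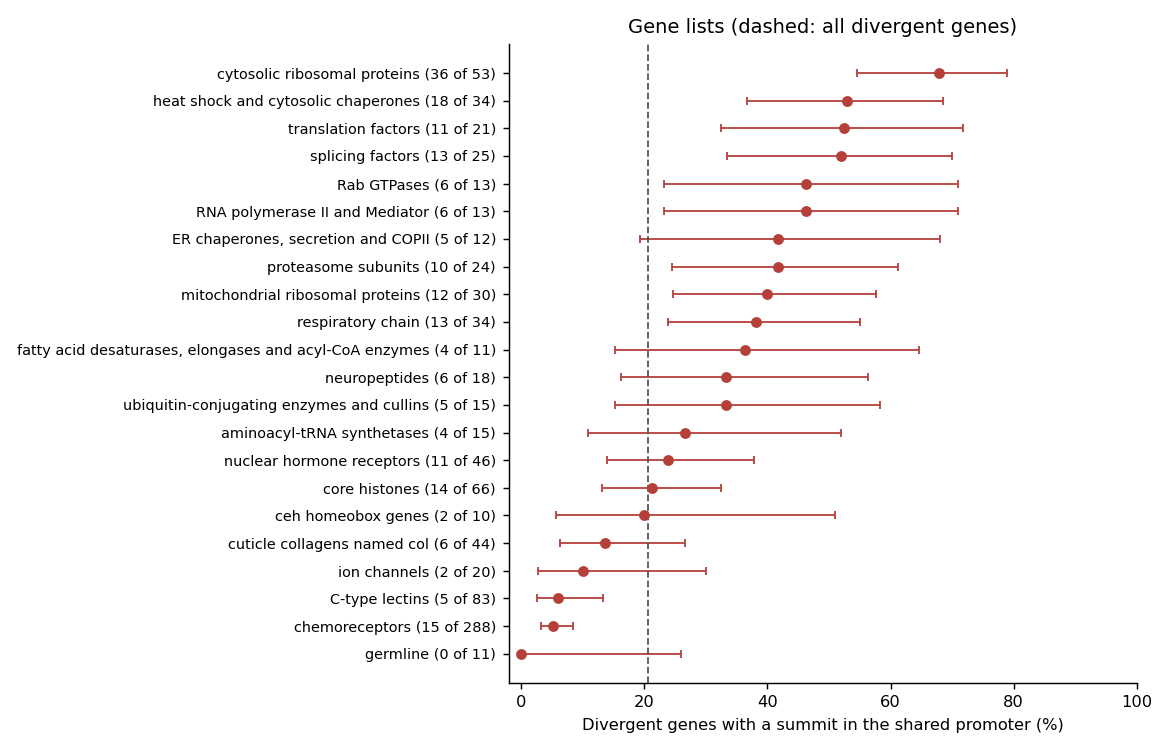
Share of each list's divergent genes that have a summit in the shared promoter (x axis, percent), with Wilson 95% intervals, for lists with 10 or more divergent genes; the dashed line is the 20.6% of all divergent genes. Ribosomal protein genes are highest at 67.9%, and chemoreceptors at 5.21% and germline genes at 0% are lowest.

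Genes of the DBL-1 pathway had 4 of 6 (66.7%, 30 to 90.3) with 5 summits. The receptor-associated membrane protein gene sma-10 shared a summit of 311 with srh-282, 89 bp from sma-10 and 932 bp from the chemoreceptor gene. Its signal was 154.3 in replicate 1 and 166.8 in replicate 2. The Smad gene sma-2 shared a stretch with ugtp-1 that held 2 summits, of 311 (60 bp from sma-2) and 76.6 (840 bp from it). The first had 159.4 in replicate 1 and 158.3 in replicate 2, and the second 25.42 and 48.35. Both lay in an intron. The netrin receptor gene unc-40, whose product also modulates BMP signals, had 132.5 with npp-7, and the tetraspanin gene tsp-21 had 79.88 with nra-3, in an intron and over a non-coding RNA gene. Of the 5 summits, those of sma-10 and unc-40 were upstream of the outermost ends of genes on both strands, and the other 3 relied on an internal annotated end. The divergent genes sma-6, the type I receptor, and tsp-12 had no summit in the shared stretch, and no DAF-7 pathway gene had a divergent arrangement.

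Few tissue markers had a divergent arrangement, so these counts do not check the tissue. Body wall muscle had 1 of 2 (pat-10, 91.25), neurons 1 of 3 (ric-19, 90.37), intestine 0 of 6, pharynx 0 of 2 and epidermis 0 of 1. That of pat-10 lay in an untranslated exon part and relied on an internal annotated end. Germline genes had 0 of 11 (Wilson upper limit 25.9%, or 27.3% by 3 counts of the total).

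GC content at the summits was high. Over the same windows it was a median of 46.5% at members (quartiles 40.6 and 51.5), 43.6% at singly upstream summits and 33.7% at the midpoints of the 3030 doubly upstream stretches. Motifs were looked for on both strands of these windows, so base composition moves with the shares below, and its part in them was not tested. The Smad box GTCTG stood in 18.4% of member windows (15.5 to 21.7), 19.3% of singly upstream windows and 10.6% of stretch midpoints. The longer GCCGNCGC element stood in 1.16%, 1.45% and 0.462% of them.

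The GATA element TGATAA stood in 61 member windows (10.1%, 7.97 to 12.8), against 20.1% of singly upstream windows, 20.3% of all summits and 10.4% of stretch midpoints. Members with it had a median signal of 90, against 143 for the 541 without it, although the strongest summit, H12C20.7/nhr-68, holds one. At singly upstream summits these medians were 110 and 116. The E-box CACGTG stood in 3.65% of member windows (2.43 to 5.47), against 7.76% of singly upstream windows and 1.88% of midpoints. GAGAGA repeats stood in 21.4% of member windows, against 26.1% of singly upstream windows and 6.5% of midpoints, and CTGCGTCT in 7.97%, against 10.4% and 0.891%. Over all summits GAGAGA stood in 25.6% and CTGCGTCT in 7.94%, the latter close to the member share (6.07 to 10.4). In the printed window of hsp-16.2/hsp-16.41 a GTCTG overlaps this last element. TATAAA stood in 4.15% of member windows (2.83 to 6.06), against 6.49% of singly upstream windows, 5.46% of all summits and 13% of midpoints. The member interval held the share of all summits. For the other 4 motifs the member interval held the singly upstream share: TGACGT stood in 7.81% of member windows against 7.24%, TGTTTAC in 1.83% against 2.67%, GGGCGG in 6.31% against 5.31% and TTTCAG in 6.31% against 5.79%. With windows of 100 bp on each side this changed for a pair of motifs. TATAAA then stood in 16.4% of member windows (13.7 to 19.6) against 17%, and TTTCAG in 20.8% (lower bound 17.7) against 15.5%.

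Among all words of 8 letters, those with the largest excess in member windows over singly upstream windows were GCGAGACC and GCGCTCCA, chosen by that excess and so given without a test. Each stood in 40 member windows (6.64%), against 1.34% and 1.37% of singly upstream windows and 1.09% and 1.02% of stretch midpoints. The 40 members with GCGAGACC had a median signal of 196 (64.21 to 633.3), against 133 for the 562 without it, and gmps-1/cap-2, printed above, was the strongest. Those with GCGCTCCA had a median of 149, against 135 without it, and rpl-20/Y17G9B.5 was the strongest. The words overlapped with repeats. The matched letters were soft-masked in the RefSeq genome at 26 of the 40 member windows for GCGAGACC and 27 of 40 for GCGCTCCA. In singly upstream windows with these words they were soft-masked at 19 of 36 (52.8%) and 23 of 37 (62.2%), against 65% and 67.5% at members. More of the window was soft-masked than not at 46 members (7.64%), at 3.78% of singly upstream summits and at 32.1% of stretch midpoints.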

How the data were processed

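SMA-9 ChIP-seq peaks were available for 2 biological replicates of 1 group, so no condition was compared. Per the file headers, each replicate list came from its own alignments and 1 further file, a pooled list from both replicates, and the IDR list from these. The sources used here name no aligner, peak caller or IDR threshold. Each peak carries the authors' deposited signal, a caller's value of no fixed range, and a capped −log10 q-value, which was not used. Depth is unknown, and with 2 replicates the precision is limited. Lists on ce10 were not used, and nothing was converted between builds.

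Summits were classed with Python 3.11.15, NumPy 2.4.6 and SciPy 1.17.1. They were set against all 29314 annotated 5′ ends of 19973 protein-coding genes (Ensembl 115, WBcel235, which is ce11). The classing was checked against a direct search at random genome positions and on sampled doubly upstream positions. A replicate call counted where it contained the IDR summit. Ranks in replicate 2 include mitochondrial calls. Shares have Wilson intervals, densities exact Poisson intervals, both at 95%. No test was run. The gene lists, motifs and members were chosen with earlier results of these data known.

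Named were the 15 strongest members, the strongest of each of 32 lists, up to 8 with genes of 1 list on both strands, DBL-1 and DAF-7 pathway members, the shortest and widest spacing, the 3 strongest without a call in 1 replicate and the 3 weakest. Any further names were picked with their values in view. The symbols opt-2 and elt-5 were not found. The strongest summit of 1 list is not reported here. Alternatives were other windows, outermost ends only, any overlapping base, the part of the list above the median signal, the pooled calls, each replicate alone and, added after seeing the data, members without genes of some lists and words of 8 letters.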

Additional observations from a re-analysis of the deposited data

How the results depend on the processing

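Of 68 recomputed values, 39 stayed within the interval of the reported value, or within 1.5 times the number of members, and 29 did not. With a 500 bp window there were 375 members (5.31% of summits), a density of 663 per megabase, a ratio to singly upstream sequence of 3.53, a nearer distance of 126 bp and a spacing of 379 bp. With 2000 bp these were 1026, 14.5%, 200, 2.05, 184 bp and 1047 bp. The part of the list above the median signal gave 377 members, 10.7% of summits, a median signal of 205, 12.5% of gene pairs, 219 per megabase and a ratio of 3.15. All 30000 pooled calls gave 1117 members, 3.72%, a median signal of 68.8, 73.8% called in both replicates, 33.2% of gene pairs, 650 per megabase, a ratio of 1.6 and a spacing of 667 bp. Outermost ends alone gave 7.56% of summits, and any base of the peak gave 9.58% of summits and 21.4% of gene pairs. The cause of each shift was not tested beyond the change in the rule or list itself. The doubly upstream density was above the singly upstream one in each setting that gave it.

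With each replicate left out in turn, members numbered 577 to 602, their share was 8.17% to 8.52%, the pair share 18.8% to 19.5%, the density 336 to 350 and the ratio 2.58 to 2.68. The nearer distance was 144 bp in both and the spacing 570 to 572 bp. No paired analysis was possible because the samples form 1 group. Without ribosomal protein genes the median signal of members was 133, and without any gene of 11 lists of cell machinery it was 128, both alternatives chosen after seeing the data. Above the median signal 5.57% of member windows held TGATAA, and the shares of the other 10 motifs stayed within their intervals. With 100 bp on each side of the summit all 11 shares were higher: 26.4% of member windows held GTCTG, 6.31% CACGTG, 19.3% TGATAA, 11.5% TGACGT, 4.65% TGTTTAC, 29.2% GAGAGA, 10.6% GGGCGG, 16.4% TATAAA and 20.8% TTTCAG, all above the interval of the narrower window, which is shorter. GCCGNCGC (1.83%) and CTGCGTCT (9.63%) stayed within theirs. Singly upstream shares were still higher for TGATAA (31.2%) and CACGTG (10.7%). The density was not run for any overlapping base, and the median signal and the share called in both replicates have no value with 1 replicate. Depth and the IDR filter limit what is on the list. A divergent promoter without a summit had none that passed the filter at an unknown depth, while pooled calls stood in 33.2% of gene pairs.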

Other observations

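The word CATACACT was noticed in the windows printed for the strongest members and then counted everywhere, so its counts are a description of a choice made on these values. It stood in 5 member windows (0.831%), against 10 singly upstream windows (0.371%), and 39 of all 7065 (0.552%). The 5 members were rpl-15/K11H12.8, rpl-20/Y17G9B.5, ifet-1/rps-1, K01G5.10/tasp-1 and T07A9.15/nog-1, of which 3 have a ribosomal protein gene and nog-1 encodes a GTPase of ribosome assembly. Their median signal was 906 (113 to 1315), against 136 for the 597 without the word. At singly upstream summits the medians were 196 with it and 114 without it, and over all summits 141 and 109.

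Gene pairs of like name on both strands made up 18 summits. The like-named pairs among all annotated divergent pairs were not counted, so the 18 cannot be set against a share. Beside the histone, rsp, hsp-16 and nlp pairs they included the glucuronosyltransferase genes ugt-11/ugt-9 with a signal of 229.4, the cytochrome P450 genes cyp-33C6/cyp-33C7 with 139.2, the F-box genes fbxa-76/fbxa-77 with 123.7, the collagen genes col-117/col-3 with 107.3 and the protease genes asp-6/asp-12 with 88.86. The strongest of the 18 was rsp-2/rsp-1 at 411.5 and the weakest spp-2/spp-6 at 62.99.

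Grouped after the values were seen, 11 lists of general cell machinery (ribosome, translation, splicing, transcription, proteasome, respiration, chaperone and traffic genes among them) accounted for 118 members (19.6%) with a median signal of 186. The other 484 had a median of 128. Singly upstream summits with a gene of these lists numbered 87, with a median of 170, and the 2608 without one had a median of 113. Of the divergent genes of these lists, 131 of 270 (48.5%) had a member summit, against 1070 of 5548 (19.3%) of those outside them. The core histone list (14 of 66, 21.2%) and the autophagy list (0 of 4) were not among the 11. Nor were the ubiquitin list (5 of 15, 33.3%) and the ER chaperone and secretion list (5 of 12, 41.7%). The 48.5% thus depends on which lists were grouped.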
